A study of Mus musculus with 8 samples.

Results

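The smooth muscle core genes and their factor SRF were followed by symbol, 10 of the 34478 genes in the deposited table of normalized counts. They are the genes of the contractile apparatus Acta2, Actg2, Tagln, Cnn1, Myl9 and Myh11, the myosin kinase Mylk, the filament protein Smtn, and the transcription factors Myocd and Srf. They were selected on their response to trametinib in these same libraries, so their differences between treatments are given as a description and carry no test. RNA-seq was performed on primary cell lines of murine pancreatic ductal adenocarcinoma (PDAC), numbered #1, #3, #5 and #10. All lines, treated and control, came from the same engineered mouse model, in which a Cre recombinase expressed from Ptf1a (Ptf1awt/Cre), a gene of pancreatic progenitors and acinar cells, acts on the engineered alleles, among them Trp53 (Trp53loxP/loxP), which it deletes. Each line gave 1 library with the solvent DMSO and 1 library after 48 h with its own IC50 of trametinib, an inhibitor of MEK, the kinase that activates ERK (4 lines and 8 libraries in all). The lines grow in culture without the tissue of the tumor, and the labels do not state whether each came from a different mouse.

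Smooth muscle cells contract through a set of proteins that most other cells make in small amounts or not at all. SRF is a transcription factor that binds the CArG box, a run of A and T bases between CC and GG, in the promoters of muscle and cytoskeletal genes. What SRF does there depends on its partner. Myocardin (Myocd) and the related factors MRTF-A and MRTF-B turn on contractile and cytoskeletal genes, and the MRTFs are held in the cytoplasm by actin monomers. The ternary complex factors Elk1, Elk3 and Elk4 compete for the same surface of SRF, are phosphorylated by ERK and drive immediate early genes. In pancreatic cancer, Acta2 is best known as a marker of myofibroblasts in the stroma, not of the cancer cells.

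The promoters of Srf, Myl9 and Acta2 are shown because they hold CArG boxes. Sequences are those of the RefSeq promoter table for GRCm38.p6, which covers 250 bases before to 50 after each transcript start, and both strands were searched. The table held 6 of the 10 genes (Acta2, Cnn1, Mylk, Myl9, Smtn and Srf). Tagln, Actg2, Myh11 and Myocd were not in it. A box with only A and T in its core occurred in 2 of the 6, Srf and Myl9, against 1.81% of 27025 genes and 1.63% of 32851 promoters in the table. The Srf stretch lies at chr17:46556195-46556264 on the minus strand, within Gm26904 on the other strand and outside annotated exons, with boxes beginning 82 and 62 bases before the start. The Myl9 stretch lies at chr2:156775283-156775394 on the plus strand, outside annotated genes, with a box of this kind 161 bases before the start. A second box in Myl9, 99 bases before the start, and both boxes in Acta2, 84 and 34 bases before the start, hold 1 core base other than A or T, a form found in the promoters of 11.29% of genes (strict boxes included). The Acta2 stretches lie on the minus strand at chr19:34255438-34255467 and chr19:34255388-34255417, inside an exon of another annotated Acta2 transcript. Capitals mark the boxes, 5′ to 3′ on the strand of the gene.
Srf: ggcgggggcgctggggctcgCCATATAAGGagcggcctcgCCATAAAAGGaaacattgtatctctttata
Myl9: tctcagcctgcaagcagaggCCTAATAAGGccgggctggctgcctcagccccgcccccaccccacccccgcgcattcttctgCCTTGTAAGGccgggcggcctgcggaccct
Acta2, distal box: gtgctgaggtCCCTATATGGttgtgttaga
Acta2, proximal box: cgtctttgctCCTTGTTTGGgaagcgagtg

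For comparison, strict boxes stood in the promoters of 6 of the 15 genes found in the table from a list of MRTF-SRF targets, 3 of 10 non-muscle counterparts of the contractile genes, 0 of 16 further smooth muscle genes, 3 of 21 striated muscle genes (among them Acta1), 1 of 7 ternary complex factor targets, 0 of 9 SRF partners, 1 of 12 genes of actomyosin control and 1 of 6 genes of ERK output. Actg1 and Cnn2, which belong to the first and the second of these lists, and Vcl, which encodes the adhesion protein vinculin, are printed to set their boxes beside those of Srf and Myl9. They lie at chr11:120348556-120348605 on the minus strand (Actg1), chr10:79988524-79988573 on the plus strand (Cnn2) and chr14:20929151-20929200 on the plus strand (Vcl), all outside annotated genes. A match describes the letters only and is not evidence of binding.
Actg1: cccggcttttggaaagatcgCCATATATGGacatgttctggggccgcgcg
Cnn2: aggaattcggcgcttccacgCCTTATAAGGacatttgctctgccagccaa
Vcl: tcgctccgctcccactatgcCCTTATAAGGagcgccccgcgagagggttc

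The libraries summed to between 30680091 and 36385719 normalized counts. The steps between low values put the depth at about 29400000 to 46000000 reads per library, so that 3 reads, the floor used below, correspond to 2.33 to 3.72 normalized counts. The log2 difference of a line is log2((trametinib + 1)/(DMSO + 1)), on which the change of weakly expressed genes appears too small. The limma fit used the line as a block and 15888 genes whose mean reached 10. The treated libraries had lower ERK output. All 12 genes of such a list were lower in limma (adjusted p under 0.05), beside 25.6% of all genes tested. The median log2 difference of the list was -2.14. The phosphatase Dusp6, an ERK feedback gene, had a log2 difference of -2.51 (adjusted p = 0.00012 in limma, standard error 0.14). Ductal markers were abundant, with the keratin gene Krt8 between 27587 and 132484 normalized counts in every library, although Epcam was listed at 0 in 6 of 8 libraries.

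With trametinib, Acta2, Tagln, Cnn1, Myl9 and Actg2, of the actin and myosin filaments, stood above their low levels in DMSO in every line, and Myh11 in 3 of the 4 lines, whereas Mylk, Smtn and Srf, which were well expressed with DMSO, stayed within 2-fold of it in every line. In the order of lines #1, #3, #5 and #10, kept throughout, Acta2 (smooth muscle α-actin) stood at 61.2, 15.5, 31.0 and 6.71 normalized counts with DMSO and at 12674, 336, 11819 and 384 with trametinib. Every treated library was above every control library, and lines #1 and #5 formed a high pair with trametinib. The values with trametinib were 207, 21.6, 381 and 57.2 times those with DMSO, and the log2 difference was 6.55 ± 1.90 (SD, n = 4 lines). In lines #1 and #5, Acta2 moved from ranks 11530 and 12565 to ranks 352 and 390 among all genes of the library, while in lines #3 and #10 it reached ranks 9380 and 9222. The gene lies on chromosome 19 from 34241090 to 34255590 (GRCm38, minus strand).

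Actg2, the γ-actin of visceral smooth muscle (chromosome 6 from 83512905 to 83536265), was listed at 0, 0, 1.08 and 0.835 with DMSO and stood at 29.8, 5.25, 61.7 and 16.5 with trametinib. All control libraries lay under 3 reads, the floor, and all treated libraries were above them. Against that floor, taken per library, Actg2 was at least 12.8, 1.69, 16.6 and 5.74 times higher with trametinib. Its level remained far below that of Acta2: per kb of transcript, Acta2 exceeded Actg2 by factors of 278, 41.9, 125 and 15.3 in the treated libraries.

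Tagln, which encodes the actin-bundling protein transgelin (SM22α; chromosome 9 from 45929619 to 45936058), stood at 34.1, 24.2, 13.7 and 14.9 with DMSO and at 8880, 112, 11538 and 182 with trametinib. The treatments did not overlap, yet the lines differed most among the 10 genes, with line #5 at 845 times its control and line #3 at 4.61 times. The log2 differences were 7.98, 2.16, 9.62 and 3.52 in lines #1, #3, #5 and #10, with a mean of 5.82 ± 3.55 (SD, n = 4 lines).

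Cnn1, calponin 1, an actin-binding brake on the myosin ATPase (chromosome 9 from 22099216 to 22109630), was at 1.47, 2.77, 3.93 and 1.21 with DMSO and at 569, 338, 1977 and 256 with trametinib. The control values of lines #1, #3 and #10 did not exceed the floor of 3 reads and that of line #5 amounted to about 3 reads, so none of them fixes the size of the change. Against the floor, Cnn1 was at least 244, 109 and 89.2 times higher in lines #1, #3 and #10. The lines differed less in Cnn1 than in Acta2 and Tagln: the log2 differences were 7.85, 6.49, 8.65 and 6.86, with a mean of 7.46 ± 0.98 (SD, n = 4 lines).

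Myl9, the regulatory light chain of smooth muscle myosin that is phosphorylated to start contraction (chromosome 2 from 156775420 to 156781658), was at 7.02, 4.68, 4.41 and 1.45 with DMSO and at 908, 288, 922 and 134 with trametinib. Its treated libraries all lay above its controls, again with lines #1 and #5 highest. The ratios were 129, 61.6 and 209 in lines #1, #3 and #5 and at least 46.5 in line #10, and the log2 difference of 6.42 ± 0.84 (SD, n = 4 lines) had the smallest spread of the 6 contractile genes. Myh11, the smooth muscle myosin heavy chain and a late marker of the lineage (chromosome 16 from 14194535 to 14291372), was listed at 0 in all controls and at 40.2, 0, 72.8 and 3.85 with trametinib. Line #3 thus showed no Myh11 in either library, and the treatments overlapped. Where it was detected, Myh11 was at least 17.3, 19.6 and 1.34 times higher in lines #1, #5 and #10.

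**Figure D1:**
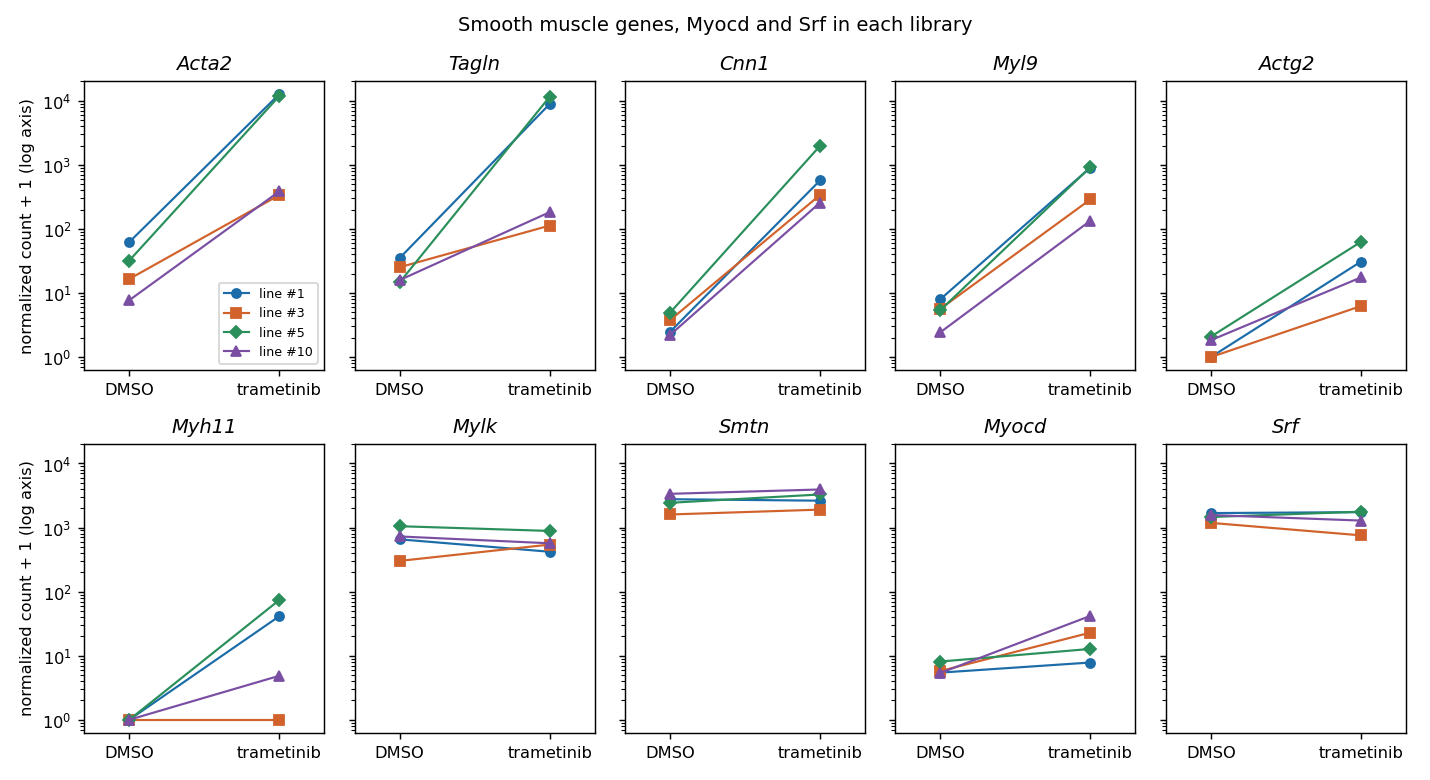
Normalized counts plus 1 (log axis) of the 10 genes with DMSO and with trametinib, 1 point per library, joined within each of the 4 cell lines. Acta2, Tagln, Cnn1, Myl9 and Actg2 have all treated libraries above all controls, with Acta2 at 12674 and 11819 in lines #1 and #5, while Mylk, Smtn and Srf overlap.

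Together, the 6 contractile genes took 104, 47.2, 54.1 and 25.1 normalized counts with DMSO and 23101, 1079, 26391 and 975.1 with trametinib. Each treated library was above all controls, and lines #1 and #5 stood far above lines #3 and #10, mainly through Acta2 and Tagln. These made up 93.3 and 88.5% of the treated sum in lines #1 and #5, and 41.5 and 58.0% in lines #3 and #10. The other 4 genes summed to 8.50, 7.45, 9.43 and 3.49 with DMSO and to 1547, 631, 3034 and 410.0 with trametinib. In bulk RNA, a larger share of cells with these transcripts and more transcript per cell cannot be told apart.

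Mylk, the kinase that phosphorylates Myl9 (chromosome 16 from 34745210 to 35002420; it also makes non-muscle forms, which a count per gene does not separate), was at 654, 301, 1048 and 725 with DMSO and at 418, 541, 884 and 567 with trametinib. The groups overlapped, and line #3, which had the lowest control, was the only line with a higher value after treatment. The mean log2 difference was -0.10 ± 0.65 (SD, n = 4 lines), and it turned to 0.03 with libraries rescaled to equal totals and to 0.08 without line #1, while without line #3 it was -0.41. Smtn, smoothelin (chromosome 11 from 3517523 to 3540612), was at 2768, 1598, 2434 and 3359 with DMSO and at 2624, 1903, 3282 and 3926 with trametinib. Its groups overlapped, with a log2 difference of 0.21 ± 0.21 (SD, n = 4 lines).

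In the mean over lines, both factors had smaller log2 differences than each of the 6 contractile genes. Myocd exceeded Myh11 in line #3, where Myh11 was listed at 0 with either treatment. In line #10 Myh11 went from 0 to about 4 reads, so its order relative to Myocd depends on the 1 added and is not fixed. Myocd (chromosome 11 from 65176561 to 65269989) was at 4.44, 4.77, 7.11 and 4.40 with DMSO and at 6.83, 21.9, 11.8 and 40.9 with trametinib, which corresponds to about 6, 5, 6 and 5 reads and 7, 23, 15 and 43 reads. Its log2 differences of 0.52, 1.99, 0.65 and 2.96 were larger in lines #3 and #10, where Acta2 and Tagln had their smaller differences, than in lines #1 and #5, and the groups overlapped because the treated library of line #1 lay below the control of line #5. Srf (chromosome 17 from 46548329 to 46556175) was at 1681, 1181, 1460 and 1567 with DMSO and at 1738, 755, 1767 and 1284 with trametinib. Lines #1 and #5 had more Srf after treatment and lines #3 and #10 had less, with a mean log2 difference of -0.15 ± 0.40 (SD, n = 4 lines), which was 0.01 without line #3.

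**Figure D2:**
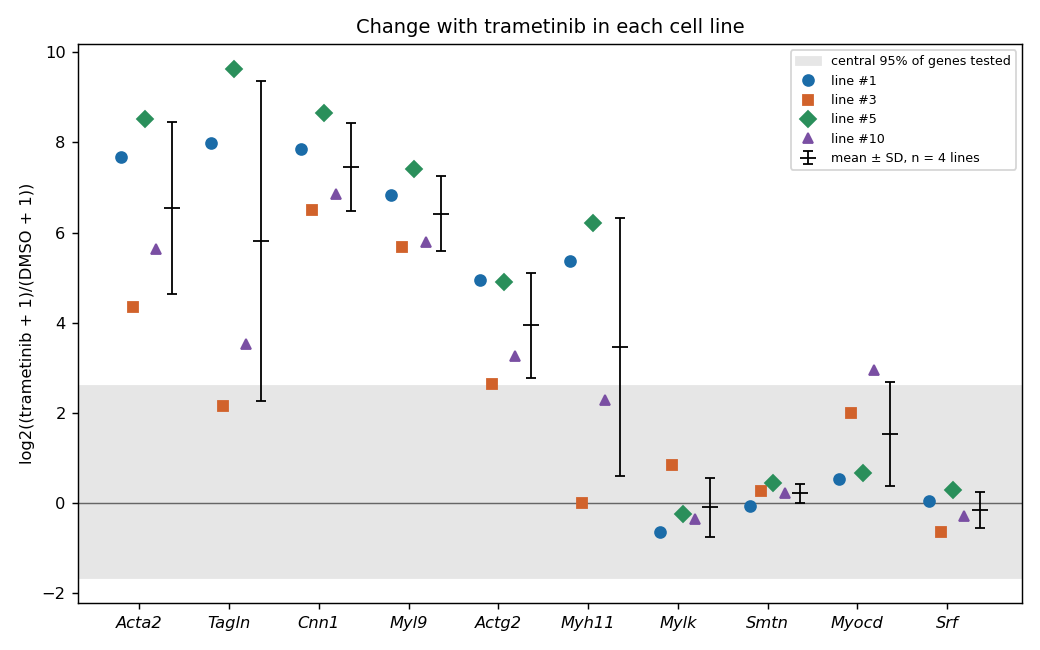
Log2 difference between trametinib and DMSO in each of the 4 lines for the 10 genes, with the mean and SD over lines in black and, in grey, the range that holds the central 95% of the genes tested (-1.66 to 2.59). The means of Acta2, Tagln, Cnn1, Myl9, Actg2 and Myh11 lie above the grey range and those of Mylk, Smtn, Myocd and Srf lie inside it.

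Of the 10 genes, 7 were past the limma threshold as higher and 0 as lower, where 27.3% of all genes tested were higher, 25.6% lower and 53.0% past it in either direction. Mylk, Smtn and Srf were not past it. In 5 genes (Acta2, Tagln, Cnn1, Myl9 and Actg2) every treated library was above every control, as in 15.1% of all genes tested. Since the genes were selected on this contrast, and since Cnn1, Myl9, Actg2, Myh11 and Myocd entered the test only through their treated libraries, nothing is read from these counts. Without line #5, 4 of the genes were past the threshold as higher (Acta2, Tagln, Cnn1 and Myl9), Actg2 and Myh11 fell below the filter, and Myocd was not past the threshold. Without line #3, Myocd was not past it and Mylk was past it as lower. Without line #1 or #10, Myh11 was not past it, and without line #10 Myocd fell below the filter. Myocd was also not past it without the block, without a filter, with quantile normalization and with centring, nor Myh11 without the block or the trend, and Smtn was past it as higher with equal totals. The genes higher numbered 5 without the block and 8 with equal totals. Among the 15888 log2 differences, Cnn1 ranked 1, Acta2 4, Myl9 5, Tagln 11, Actg2 84, Myh11 159 and Myocd 1269, and Smtn, Mylk and Srf ranked 6813, 9327 and 9775.

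The order of the lines by size of the difference was read from the 10 genes themselves, so the shares below describe it and do not test it. With 1 added to each value, line #5 was followed by #1, #10 and #3 in 6 of the 10 genes. These were Acta2, Tagln, Cnn1, Myl9, Myh11 and Srf. In Cnn1, Myl9 and Myh11, controls at or under the floor leave part of the order unfixed. Cnn1 was at least 109 times higher in line #3 and at least 89.2 times in line #10. Myl9 was 61.6 times higher in line #3 and at least 46.5 times in line #10. The order #5, #1, #10 and #3 was found in 6.55% of the 15888 genes tested, and in 3.47% of the 2189 genes past the threshold with a log2 difference over 1. Actg2 differed from it only by an exchange of lines #1 and #5, which lay at 4.95 and 4.91. In Myocd the order was #10, #3, #5 and #1, and Dusp6 had its smallest decrease in line #5, with log2 differences of -2.97, -2.42, -2.11 and -2.56 in lines #1, #3, #5 and #10. With 1 library per line and treatment, the spread within a line was not measured, and a difference between lines cannot be told apart from one between single libraries.

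Muscle forms of actin and myosin have non-muscle counterparts that all cells use, and 11 of these were listed. Of them, 9 were higher and 0 lower in limma (27.3 and 25.6% of all genes tested), with a median log2 difference of 0.67 beside 0.07 for all genes tested. Cnn2, the broadly expressed calponin, was higher by 1.11 (standard error 0.08, adjusted p = 0.00029 in limma), a call lost without the block. Myh14, a non-muscle myosin heavy chain, was higher by 1.09 (standard error 0.35, adjusted p = 0.036 in limma), which was lost without the block, a filter or the trend, with quantile normalization and without line #1, #5 or #10. Actg1, cytoplasmic γ-actin, was higher by 0.43 (standard error 0.13, adjusted p = 0.024 in limma), also lost without the block, with centring on the median and without line #1, #5 or #10. Actb and Tagln2 were not past the threshold, with differences of -0.29 and -0.14. Without the line as a block, 2 of the 11 were past the threshold, and without line #1, 5.

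Relative to these counterparts, per kb of transcript, the muscle forms took larger shares with trametinib. Myl9 stood at 0.693, 0.950, 0.778 and 0.223% of Myl12a, a non-muscle regulatory light chain, with DMSO and at 57.1, 28.6, 89.6 and 12.3% with trametinib. Tagln was between 0.0533 and 0.148% of Tagln2 with DMSO, and with trametinib it was at 30.9, 1.04, 46.4 and 0.938%. Cnn1 was at most 0.121% of Cnn2 with DMSO and at 3.81, 6.19, 16.0 and 3.24% with trametinib. The controls of Cnn1 held about 3 reads or fewer and that of Myl9 in line #10 about 2. Their percentages with DMSO are therefore not fixed. Line #5 was highest in each of these ratios with trametinib, whereas line #3 was above line #1 in Cnn1 alone. Myh11 did not exceed 0.0680% of Myh9, the main non-muscle myosin heavy chain, in any library.

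**Figure D3:**
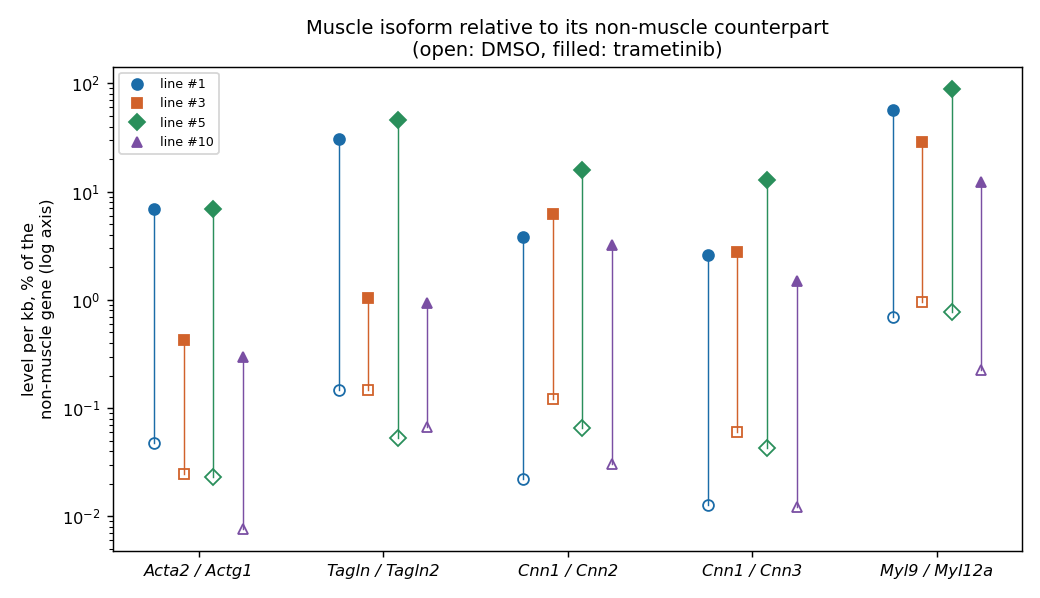
Level of a muscle gene per kb of transcript as a percentage of its non-muscle counterpart (log axis), for DMSO (open) and trametinib (filled) in each of the 4 lines. Myl9 reached between 12.3 and 89.6% of Myl12a with trametinib, while Acta2 stayed below 7% of Actg1. Open points of Cnn1, and of Myl9 in line #10, rest on about 3 reads or fewer.

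Of the 6 actin genes, Actb and Actg1 made up nearly all transcripts per kb in every library. The muscle actins Acta1, Acta2, Actc1 and Actg2 together made up 0.0265, 0.0164, 0.0128 and 0.00837% of all actin with DMSO and 4.21, 0.382, 3.93 and 0.320% with trametinib. Acta2 accounted for 3.89, 0.237, 3.75 and 0.157% of all actin after treatment. Acta1, the actin of skeletal muscle, was at 5.36, 7.03, 3.22 and 6.62 normalized counts with DMSO and at 708, 141, 330 and 265 with trametinib, a log2 difference of 5.59 (standard error 0.46, adjusted p = 0.00033 in limma) that was above 0 in 4 of 4 lines. It passed the filter only through its treated libraries. Per kb, Acta2 was 12.7 and 25.4 times Acta1 in the treated libraries of lines #1 and #5, but only 1.69 and 1.03 times in lines #3 and #10. Actc1, cardiac actin, did not exceed 1.54 in any library. At the level of sequence, none of the 100-base windows of Acta2, Acta1, Actg2 and Actc1 transcripts occurred in a transcript of another gene, whereas 39.4% of those of Actg1 did, mainly in its pseudogenes. How the authors' counting treated such reads was not tested.

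Of 25 striated muscle genes, 13 were tested, 2 were higher, 2 lower and 9 not past the threshold, with a median of 0.43, where 27.3% of all genes tested were higher and 25.6% lower. Next to Acta1, Tnni1, troponin I of slow muscle, was higher by 1.33 (standard error 0.36, adjusted p = 0.019 in limma), at no more than 21.1 normalized counts, and its call was lost with quantile normalization and without line #3 or #10. Both Acta1 and Tnni1, with DMSO means of 5.56 and 5.62, passed the filter only through their treated libraries. Tnni2 and Tnnt2, further troponin subunits, were lower, at -1.65 and -1.37 (standard errors 0.30 and 0.17, adjusted p = 0.0038 and 0.0011 in limma). Myod1, the master factor of skeletal muscle, was listed at 0 in all 8 libraries.

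Of 20 further smooth muscle genes, 14 were tested, of which 7 were higher, 2 lower and 5 not past the threshold (27.3 and 25.6% of all genes tested were higher and lower), with a median of 0.39. Cald1, caldesmon, an inhibitor of actin-activated myosin that has muscle and non-muscle forms, was at 4426, 1380, 7129 and 6528 with DMSO and at 59488, 34092, 73108 and 30897 with trametinib, a log2 difference of 3.49 (standard error 0.34, adjusted p = 0.00054 in limma). Synpo2, which encodes an actin-bundling protein of muscle, was higher by 2.69 (standard error 0.50, adjusted p = 0.0046 in limma). It passed the filter only through its treated libraries (DMSO mean 3.79). Cav1, the caveola protein, and Csrp2, a LIM protein of smooth muscle, were lower, at -1.48 and -0.60 (standard errors 0.30 and 0.12, adjusted p = 0.006 and 0.0057 in limma), with the Cav1 call lost without the block. Lmod1, leiomodin 1, which nucleates actin in smooth muscle and was singled out after its values were seen, fell below the filter. It was listed at 0 in all controls and stood at 28.4, 3.74, 40.0 and 4.81 with trametinib.

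Targets of the SRF partners were listed separately. Of 18 MRTF-SRF targets, all tested, 16 were higher, 0 lower and 2 not past the threshold, beside 27.3% higher and 25.6% lower of all genes tested, with a median log2 difference of 1.18. Next to Cald1, the matricellular gene Ccn1 (Cyr61 in the deposited table) was higher by 2.83 (standard error 0.33, adjusted p = 0.00087 in limma). Of 11 ternary complex factor targets, 9 were tested, 5 were lower, 2 higher and 2 not past the threshold, beside the same shares, with a median of -1.19. The immediate early factors Egr1 and Egr3 were lower, at -4.64 and -2.33 (standard errors 0.23 and 0.39, adjusted p = 9.4e-05 and 0.003 in limma), with Egr1 falling from between 510 and 667 normalized counts to between 15.9 and 34.7. Egr3 passed the filter only through its controls (mean with trametinib 4.12). Junb and Mcl1 were higher by 0.41 and 0.29 (standard errors 0.12 and 0.08, adjusted p = 0.029 and 0.022 in limma), and both calls were lost without the block, without trend and without line #1, #5 or #10, that of Junb also without a filter and that of Mcl1 with centring on the median. Without the block, 8 of the MRTF-SRF targets were higher. Without line #1, 3 of the ternary complex factor targets were lower. The lists overlap, since Actb, Actg1, Cnn2 and Myh9 are also non-muscle counterparts and Tpm1 and Cald1 also further smooth muscle genes. Whether the lists differ from each other was not tested.

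**Figure D4:**
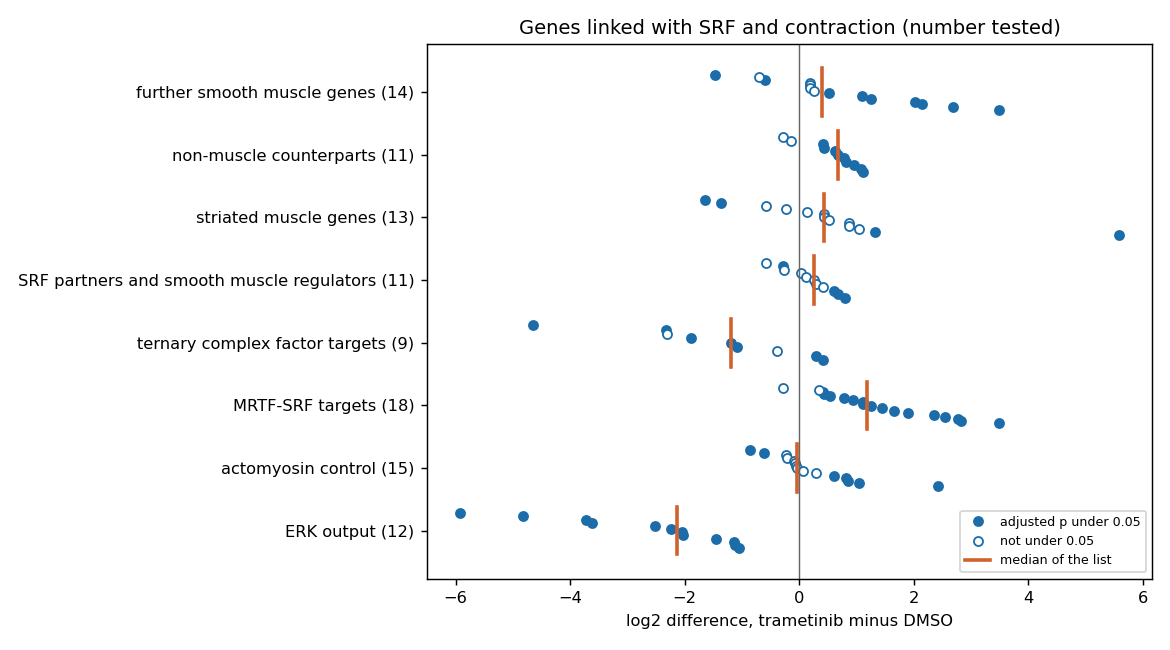
Log2 difference between trametinib and DMSO for each tested gene of 8 lists, filled where the adjusted p in limma was under 0.05, with the median of each list in orange. MRTF-SRF targets centre on 1.18 and ternary complex factor targets on -1.19, and Acta1 stands apart among the striated muscle genes at 5.59.

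Among 11 SRF partners and regulators of smooth muscle genes, 3 were higher, 1 lower and 7 not past the threshold, with a median of 0.25, and the share higher was that of all genes tested (27.3%). Without the block 1 was higher, and with equal totals 6 were. Mrtfb (Mkl2 in the deposited table) was at 2377, 1151, 1885 and 1582 with DMSO and at 3725, 2193, 3190 and 2799 with trametinib, a log2 difference of 0.79 (adjusted p = 0.00072 in limma, standard error 0.09) with little variation between lines. Mrtfa (Mkl1) was higher by 0.61 (standard error 0.19, adjusted p = 0.033 in limma), mostly through line #3, where it went from 1862 to 4904. This call was lost without the block, without a filter, with centring on the median, without trend and without line #1, #5 or #10. The line with the largest difference in Mrtfa was the line with the smallest differences in Acta2 and Tagln. Elk1 was higher by 0.67 (standard error 0.10, adjusted p = 0.0017 in limma), Elk3 lay at -0.27 and was not past the threshold (adjusted p = 0.055 in limma), and Elk4 was lower, at -0.28 (standard error 0.09, adjusted p = 0.039 in limma). The Elk1 call was lost without the block, and the Elk4 call without the block, under 4 other settings and without line #1, #5 or #10. Klf4, a repressor of smooth muscle genes, had a log2 difference of -1.60 in line #5 and between -0.31 and -0.14 in the other lines, and was not past the threshold (adjusted p = 0.08 in limma).

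**Figure D5:**
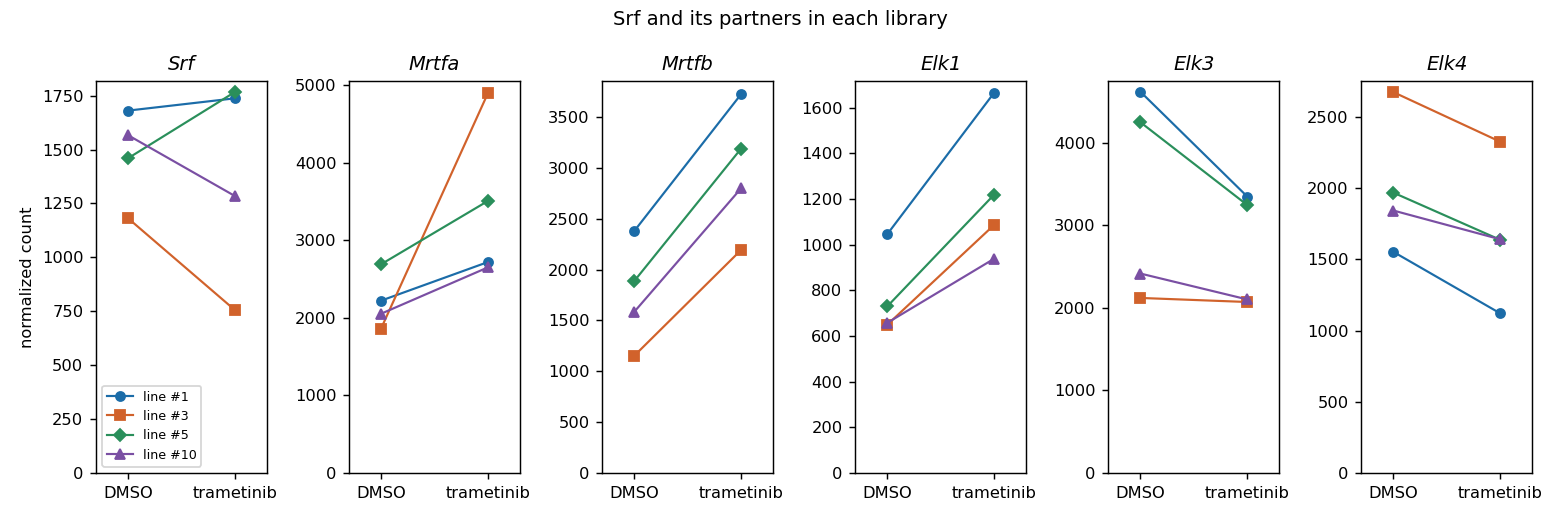
Normalized counts (linear axes from 0) of Srf, Mrtfa, Mrtfb, Elk1, Elk3 and Elk4 with DMSO and trametinib, joined within each of the 4 lines. Mrtfb and Elk1 are higher with trametinib in each line, Mrtfa is highest in line #3 at 4904, and Srf moves in different directions.

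Contraction also depends on the switches that set myosin phosphorylation. Of 16 genes of actomyosin control, 15 were tested, 5 were higher, 2 lower and 8 not past the threshold, with a median of -0.04. The count higher and the count in either direction are near the shares of all genes tested (27.3% higher and 53.0% past the threshold). The share of all genes tested that were lower, 25.6%, was above that of the list. The small GTPase Rhob was higher by 2.42 (standard error 0.14, adjusted p = 0.00013 in limma) and Rhoc by 1.04 (standard error 0.10, adjusted p = 0.00048 in limma). Calm3, which encodes calmodulin, the activator of Mylk, was lower, at -0.62 (standard error 0.09, adjusted p = 0.0021 in limma). Without the block, the calls of Rhoc and Calm3 were lost.

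Markers of other cells that carry smooth muscle genes were measured alongside. Among all genes tested, 27.3% were higher and 25.6% lower in limma. Of 12 fibroblast markers, 5 were tested, of which Col1a1 was higher (log2 difference 3.60, standard error 0.42, adjusted p = 0.00087 in limma) and 0 lower. Their summed level was 108 to 369 normalized counts with DMSO and 458 to 1263 with trametinib, and Lum was listed at 0 in all libraries. The increase was that of Col1a1, since the other 11 markers summed to between 78.3 and 238.9 with DMSO and between 67.1 and 155.9 with trametinib. Of 6 pericyte markers, the 3 tested were higher, Mcam by 5.20 (standard error 0.26, adjusted p = 9.6e-05 in limma), Cspg4 by 1.75 (standard error 0.44, adjusted p = 0.014 in limma) and Notch3 by 2.75 (standard error 0.91, adjusted p = 0.04 in limma, lost under 4 settings and without any 1 of lines #1, #3 and #5). Their sum went from between 46.1 and 65.7 to between 1022 and 2645, nearly all of it Mcam. The other 5 summed to between 13.03 and 21.8 with DMSO and between 45.7 and 133.9 with trametinib, with Rgs5, Kcnj8 and Abcc9 at no more than 6.74 in any library. Cspg4 and Notch3, with DMSO means of 9.73 and 2.82, passed the filter only through their treated libraries. Nothing is therefore read from the count of pericyte markers higher. Among 6 endothelial markers, Tek was higher by 3.77 (standard error 0.52, adjusted p = 0.0015 in limma) and the summed level went from 35.2 to 63.7 with DMSO to 63.7 to 837 with trametinib, of which Tek took 805 in line #3 and 153 in line #1. The other 5 markers summed to between 17.5 and 56.4 with DMSO and between 31.6 and 72.5 with trametinib. Tek, too, passed the filter only through its treated libraries (DMSO mean 8.21). Pecam1 did not exceed 15.6 in any library. Leukocyte markers summed to between 149 and 223 with DMSO and between 156 and 265 with trametinib, and 0 of the 3 tested were past the threshold in either direction. Of 7 ductal epithelial markers tested, 6 were lower (25.6% of all genes tested), with a median of -0.82. The calls of Krt7 and Sox9 were lost without the block, that of Krt7 also without line #5. The sum of all 8 listed went from between 231006 and 353416 to between 119359 and 231497. The part of other cell types in the contractile genes was not tested.

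Finally, genes with a profile most like that of the 10 genes were sought among 11433 genes with a mean of at least 100, by Pearson correlation over the 8 libraries with the mean standardised profile of the 10. These values describe 8 libraries that share lines and treatment, and other genes that are higher with trametinib would also score high. Tpm1, tropomyosin 1, came first (r = 0.987), at 11241 to 24332 normalized counts with DMSO and 23877 to 68164 with trametinib. It was followed by Slc25a25, a mitochondrial carrier (r = 0.986), Zfp128 (r = 0.982), 2900026A02Rik (r = 0.980) and Gas6, a ligand of TAM receptors (r = 0.980), which went from between 3.12 and 17.4 to between 41.2 and 482.7. Of the 10 genes themselves, Actg2 was closest to the shared profile (r = 0.969) and Mylk farthest (r = 0.268), with Myocd at 0.496 and Srf at 0.345.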

How the data were processed

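Total polyA RNA of the 4 lines was sequenced after TruSeq Stranded mRNA preparation from 100 ng. What the authors deposited is a normalized count for each gene, that is, a signal made comparable between libraries but not corrected for gene length. The submitters' processing notes name CASAVA 2.17, Salmon 0.12, DESeq2 1.18 and the build mm10 (GRCm38). Their roles and the gene annotation are not given in the sources used here. Of the values under 20 steps, 53.9 to 68.1% lay within 0.05 of a whole multiple of the step, so whole reads were not recovered and no count model was used.

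Samples were grouped by title, which gives treatment and line. Values were transformed as log2(value + 1) and fitted with limma 3.58.1 (lmFit, eBayes with trend) in R 4.3.3, with the line as a block, a filter at a mean of 10, Benjamini-Hochberg adjustment and a threshold of 0.05. The fit was tested on simulated data. Deviations from the treatment means were shared by both libraries of a line (r = 0.644, 0.647, 0.631 and 0.724 across genes in lines #1, #3, #5 and #10), and the labels give them the same line. Python 3.11.15, numpy 2.4.6, pandas 2.3.3 and matplotlib 3.10.9 were used for the other steps. Levels per kb used the longest coding transcript in GENCODE M21. Exons of Tagln, Mylk and Smtn overlap genes on the other strand, and the libraries were stranded.

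The 10 genes and the gene lists were chosen with earlier results of these data known. Named were the 10 genes, from each list the 2 largest rises and falls past the threshold, any gene of a list of up to 11, the MRTF and Elk genes, the other actins, Dusp6 and the 5 genes most like the 10 in profile. Vcl, Myod1, Lum and Lmod1 were added after their values were seen. Some items that the rule names are not reported here. Alternatives were pseudocounts of 0.1 and 5, no filter or one at 50, equal totals, quantile normalization, centring on the median, no block, eBayes without trend or with robust estimation, and leaving out each line.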

Additional observations from a re-analysis of the deposited data

Results flagged for a closer look

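Of 60 groups of 4 values, 3 held a value that stood far from the other values by Dixon's criterion, and chance gives about 3. Myocd with DMSO was at 7.11 normalized counts in line #5 and between 4.40 and 4.77 in the other lines, which is about 6 reads in line #5 and 5 to 6 reads in the others. The log2 difference of Mkl1 (Mrtfa) was 1.40 in line #3 and between 0.29 and 0.38 in the other lines. Actc1 with trametinib was at 0.972 in line #1, which is below 3 reads, and at 0 elsewhere.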

How the results depend on the processing

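Over all alternatives, 244 counts that answer a comparison kept within 1.5 times and 36 moved. A count has no direction, so this tally cannot show a reversal. The share of all calls that were higher ran from 46.1% (centring on the median) to 61.8% (equal totals). The replicate block mattered most: with no replicate block, 2205 genes were higher and 2347 lower (4341 and 4075 with it), and the genes higher numbered 2 among non-muscle counterparts, 8 among MRTF-SRF targets, 3 in actomyosin control, 1 among SRF partners and 0 among ternary complex factor targets, and those lower 1 in actomyosin control, 1 among further smooth muscle genes and 0 among SRF partners. With equal totals, 5315 genes were higher and 3284 lower (61.8% of calls higher against 51.6%), the median of all genes was 0.20 in place of 0.07, and 6 SRF partners were higher and 0 lower. Without a filter, 0 SRF partners were lower and 1 ternary complex factor target higher. With a filter at 50, which leaves out Actg2, Myh11 and Myocd, 4 of the 10 genes were higher, with 1 striated muscle gene higher and 2 SRF partners lower. Quantile normalization left 1 striated muscle gene higher and 0 SRF partners lower, centring on the median 1 ternary complex factor target higher, and eBayes without trend 0 SRF partners lower and 0 ternary complex factor targets higher. Leaving out 1 line gave 4 (without line #5) to 6 of the 10 genes higher and 0 to 1 lower (1 without line #3), 5 (without line #1) to 8 non-muscle counterparts higher, 1 to 2 striated muscle genes higher, 0 to 2 SRF partners lower, and 0 to 2 ternary complex factor targets higher and 3 (without line #1) to 6 lower. Among log2 differences of single genes, 57 lost and 2 gained their call. Another 555 kept it or, for the 10 genes, lay within the spread between lines. The calls of the 10 genes are not in this tally. The filter, block, trend and robust settings leave their log2 differences unchanged, and leaving out 1 line cannot move these beyond that spread. Nothing is therefore read from their part of the tally. With the pseudocount, 4 values of Actg2, Cnn1 and Myl9 moved beyond the spread, Actg2 from 2.29 (5) to 5.96 (0.1). Myh11, whose lines differ widely, ran from 1.99 (5) to 5.87 (0.1), and Mylk and Srf changed sign (-0.41 to 0.08 and -0.30 to 0.01). Where not stated, the cause was not tested. Depth limits Actg2, Myh11, Cnn1 and Myl9 with DMSO, whose ratios are lower bounds where a control is at or under the floor.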
